A study of Mus musculus with 14 samples.

Results

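A group of 10 genes that govern whether a cell stays in or leaves the cell cycle were followed in newborn mouse eyes lacking 1 of 2 chromatin remodelling ATPases. They are the cyclin-dependent kinase (CDK) inhibitors Cdkn1b, Cdkn1c, Cdkn2c and Cdkn2d, the D-type cyclins Ccnd1, Ccnd2 and Ccnd3, the kinases Cdk4 and Cdk6, and the retinoblastoma gene Rb1. They were chosen by name for their part in cell cycle exit in the lens, and every probe set annotated to 1 of them and to no other gene was used. This gave 10 of 12393 genes and 21 of 20380 probe sets, with 7 probe sets for Ccnd2, 3 each for Ccnd1 and Cdk4, 2 for Cdkn1b and 1 for each of the other genes.

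Total RNA of whole eyes at postnatal day 1 was measured on 14 arrays in 4 groups. The Snf2h cKO group held 4 samples with a lens-conditional knockout of Snf2h, the ISWI ATPase encoded by Smarca5, and was set against 4 wildtype samples, all of strain C57BL/6. The Brg1 cKO group held 3 samples with a conditional knockout of Brg1, the SWI/SNF ATPase encoded by Smarca4, and was set against 3 wildtype samples, all on a mixed background. The labels used here give neither the Cre driver nor the tissue of the Brg1 deletion, and no wildtype sample was shared. Since each sample was a whole eye, fewer cells of a type and less RNA per cell cannot be told apart, and lens RNA was only a portion of what was measured.

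D-type cyclins pair with Cdk4 or Cdk6 and phosphorylate the retinoblastoma protein, which otherwise holds E2F transcription factors and the genes of DNA replication in check. INK4 proteins such as those of Cdkn2c and Cdkn2d bind the kinases themselves, and Cip/Kip proteins such as those of Cdkn1b and Cdkn1c bind cyclin-kinase complexes. In the mouse lens, epithelial cells that move past the equator stop dividing and become fibre cells, and Cdkn1b, Cdkn1c and Rb1 are known to be needed for that exit.

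None of the 21 probe sets passed the test in either knockout. By limma with Benjamini-Hochberg adjustment over all 20380 probe sets, the smallest adjusted p was 0.129 in Snf2h cKO eyes and 0.387 in Brg1 cKO eyes. The same test called 0 of all probe sets (0%) in Snf2h cKO eyes and 127 (0.623%) in Brg1 cKO eyes. At an unadjusted p under 0.05 there were 5 member probe sets in Snf2h cKO eyes, 3 higher and 2 lower, where 3610 of all probe sets (17.7%) met that limit. Of the member probe sets in Brg1 cKO eyes 1, lower, met it, against 1656 of all probe sets (8.13%).

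In Snf2h cKO eyes 13 of 21 log2 changes were positive, with a median of 0.04 and a range from −0.78 to 2.12, and the median over all probe sets was −0.03. The number of negative changes was 19 of 21 in Brg1 cKO eyes, with a median of −0.29 and a range from −0.83 to 0.43, and over all probe sets the median was −0.01. Taking only the brightest probe set of each gene, 6 of 10 changes were negative in Snf2h cKO eyes and 8 of 10 in Brg1 cKO eyes. Probe sets of a gene share a transcript, so these counts are not independent.

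Separation of the groups gave a similar picture. Knockout arrays lay above all wildtype arrays for 3 probe sets and below them for 2 in Snf2h cKO eyes, where 6.52% and 4.17% of all probe sets did so. The 3 higher ones were Cdkn1b 1419497_at, Cdkn2d 1416253_at and Cdk4 1422439_a_at, and the 2 lower ones were Cdkn1c 1417649_at and Ccnd2 1416124_at. In Brg1 cKO eyes 0 probe sets were higher and 4 were lower without overlap (7.23% and 6.2% of all probe sets), namely those of Cdkn1c and Cdkn2c, Ccnd1 1417419_at and Cdk4 1422440_at. Cdkn1c 1417649_at was thus the 1 member probe set whose knockout arrays lay below every wildtype array in both experiments. The share of all probe sets that did so in both was not counted.

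**Figure D1:**
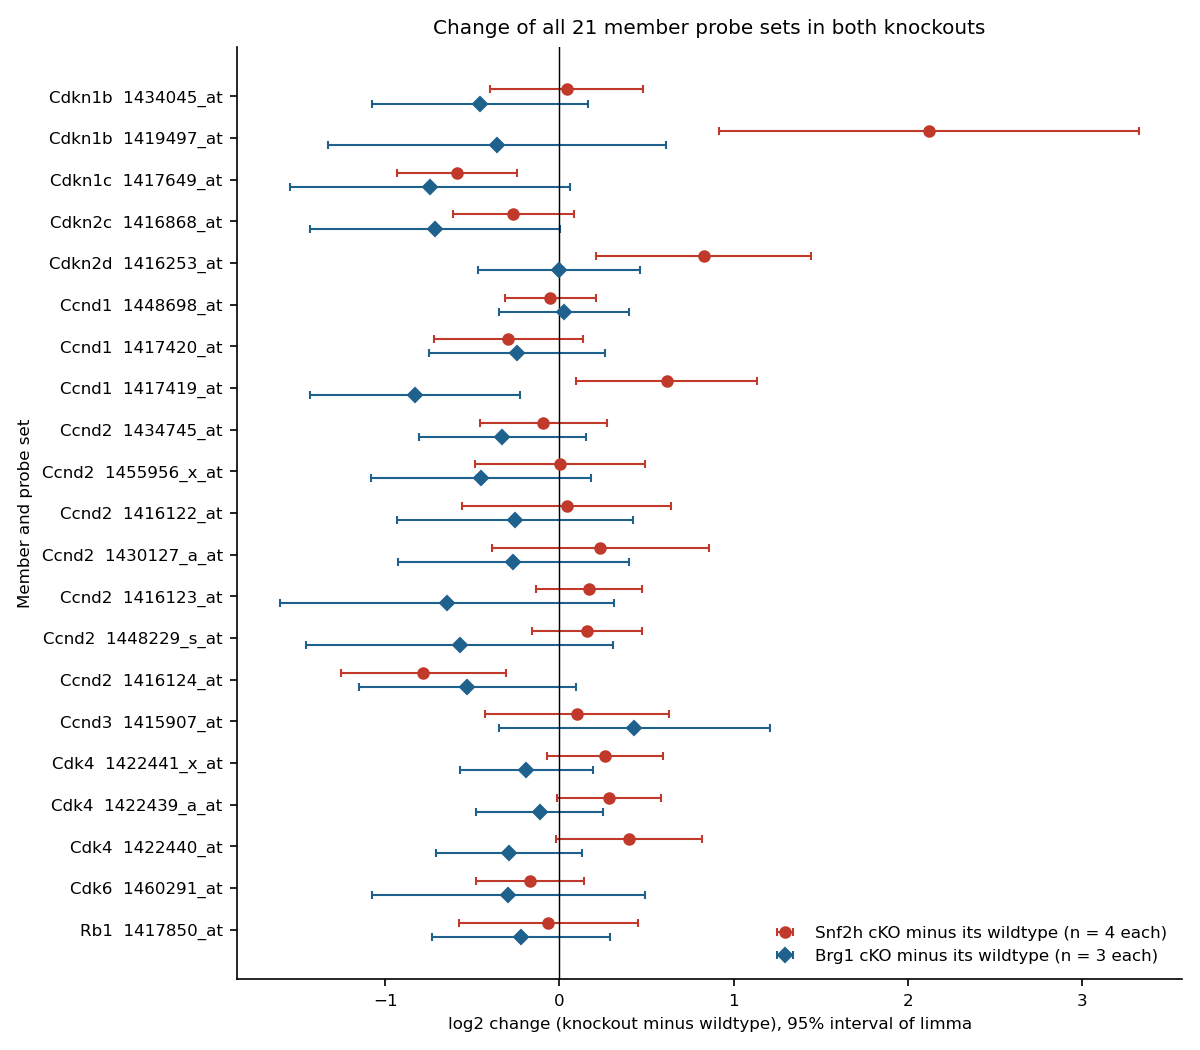
Log2 change (knockout minus its own wildtype, horizontal axis) of the 21 member probe sets in Snf2h cKO eyes and Brg1 cKO eyes, with bars for the 95% interval from limma. The Snf2h changes range from −0.78 to 2.12 and the Brg1 changes from −0.83 to 0.43, and none passed the adjusted test.

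The arrays differed in RNA quality, and its part in these values was not tested beyond the alternatives given below. The ratio of the 3' to the 5' probe set of the control transcript Gapdh, a sign of RNA quality that grows with degradation or short amplification, was on the log2 scale 0.969, 0.840, 0.775 and 0.989 in Snf2h cKO eyes. It was 1.31, 1.46, 4.47 and 1.09 in C57BL/6 wildtype eyes, so these groups did not overlap. In the Brg1 experiment it was 0.661, 0.963 and 0.633 in cKO eyes and 0.738, 0.735 and 0.683 in wildtype eyes, and the groups overlapped. The same ratio for the control transcript Actb was 1.83, 1.7, 1.34 and 1.38 in Snf2h cKO eyes. For Actb the C57BL/6 wildtype eyes had 2.14, 2.18, 3.08 and 1.44, so by this control the groups overlapped, through wildtype replicate 4. The Brg1 experiment groups overlapped for Actb as well. C57BL/6 wildtype replicate 3, the highest of all, was the lowest array of its group for 13 of 21 member probe sets, and for 28.6% of all probe sets. Other arrays were uneven too. C57BL/6 wildtype replicate 4 was the highest of its group for 13 of 21 (30.4% of all probe sets). Brg1 cKO replicate 3 was the highest for 14 (29.3%) and the lowest for 0 (32%), and Brg1 cKO replicate 2 the lowest for 12 (39.9%). Snf2h cKO replicates 1 and 2 were nearly the same array, with an SD of 0.217 for their log2 differences over probe sets, against 0.419 to 0.723 for the remaining 17 within-group pairs.

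Markers of the tissues of the eye also differed between groups. Over 8 measured lens fibre markers, summed intensity was 28510 to 39530 in Snf2h cKO eyes and 29770 to 42990 in C57BL/6 wildtype eyes, with 6 of 8 changes negative and 0 called. It was 9491 to 26850 in Brg1 cKO eyes and 42210 to 47030 in mixed-background wildtype eyes, with all 8 changes negative and 2 that fell. Neutrophil and inflammation markers summed to 5046 to 17870 in Brg1 cKO eyes and 215.6 to 339.3 in their wildtype, and 5 of 6 rose. Wounded epithelium markers summed to 3003 to 4742 in Brg1 cKO eyes and 441.3 to 451.8 in their wildtype, and 3 of 4 rose, while 1 of 6 corneal and surface epithelium markers fell. Retinal progenitor markers, those of dividing cells of the retina, summed to 3024 to 3421 in Brg1 cKO eyes and 3744 to 4285 in their wildtype, with 5 of 5 changes negative and 0 called. The same list summed to 1943 to 2731 in Snf2h cKO eyes and 2097 to 3156 in their wildtype, with 4 of 5 negative and 0 called. In Snf2h cKO eyes photoreceptor markers summed to 7504 to 10750, against 4752 to 6914 in wildtype, with 7 of 7 changes positive, and inner retina markers to 7125 to 8476, against 4813 to 5918, with 6 of 7 positive and 0 called in both lists. No marker of these lists was listed at 0, and their part in the results on the cell cycle genes was not tested.

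No probe set of the deleted genes passed the test in its own knockout. The Smarca5 probe set 1424205_at averaged 8.90 ± 0.14 in Snf2h cKO eyes and 9.39 ± 0.27 in wildtype eyes (log2 level, SD, n = 4 each; limma adjusted p = 0.188), while 1424206_at and 1424207_at had log2 changes of −0.19 and 0.31. For Smarca4, 1426805_at averaged 7.35 ± 0.49 in Brg1 cKO eyes and 8.10 ± 0.36 in wildtype eyes (SD, n = 3 each; limma adjusted p = 0.579), and 1426804_at had a log2 change of 0.05. Where these probe sets lie relative to the deleted exons was not known.

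Sequence context is shown for the 3 genes that had a probe set above every wildtype array in Snf2h cKO eyes, all of which have a promoter entry in RefSeq (mouse build GRCm38.p6). Each sequence runs from 250 bases before to 50 bases after the annotated start, 5' to 3' along the gene. Capitals mark GC boxes (GGGCGG, or CCGCCC on the other strand) and CCAAT boxes (CCAAT, or ATTGG on the other strand). The Cdkn1b promoter is chr6:134920151-134920450 on the plus strand, that of Cdkn2d is chr9:21291160-21291459 on the minus strand and that of Cdk4 is chr10:127063285-127063584 on the plus strand.
Cdkn1b: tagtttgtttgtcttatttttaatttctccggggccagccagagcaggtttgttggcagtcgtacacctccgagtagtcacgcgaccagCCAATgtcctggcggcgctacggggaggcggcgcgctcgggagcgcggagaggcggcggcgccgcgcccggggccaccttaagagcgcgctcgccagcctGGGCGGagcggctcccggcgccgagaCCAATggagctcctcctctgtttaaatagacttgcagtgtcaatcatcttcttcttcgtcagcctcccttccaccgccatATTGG
Cdkn2d: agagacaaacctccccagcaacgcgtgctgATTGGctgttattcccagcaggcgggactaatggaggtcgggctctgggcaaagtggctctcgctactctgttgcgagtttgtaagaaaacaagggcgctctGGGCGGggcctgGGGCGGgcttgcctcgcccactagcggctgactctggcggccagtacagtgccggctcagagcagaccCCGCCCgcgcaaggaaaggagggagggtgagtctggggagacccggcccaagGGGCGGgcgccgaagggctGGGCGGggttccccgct
Cdk4: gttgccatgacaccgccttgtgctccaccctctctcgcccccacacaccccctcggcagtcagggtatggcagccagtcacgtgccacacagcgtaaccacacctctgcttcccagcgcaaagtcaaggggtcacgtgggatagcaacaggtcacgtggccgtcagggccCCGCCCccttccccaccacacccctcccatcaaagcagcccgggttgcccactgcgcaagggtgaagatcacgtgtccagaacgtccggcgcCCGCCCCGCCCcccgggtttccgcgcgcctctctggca
The Cdkn1b window holds 1 GC box and 3 CCAAT boxes, the Cdkn2d window 5 GC boxes and 1 CCAAT box, and the Cdk4 window 3 GC boxes, a pair of which overlap, and 0 CCAAT boxes. GC boxes occur in 35.7% and CCAAT boxes in 37.4% of 32851 RefSeq promoter windows of this length, so these matches only describe the letters present.

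Cdkn1b, the Cip/Kip inhibitor also called Kip1, gave different values with its 2 probe sets. The brighter one, 1434045_at, had log2 levels of 10.33, 10.17, 10.47 and 10.33 in Snf2h cKO eyes, against 10.23, 10.73, 10.39 and 9.79 in wildtype eyes. All 4 knockout values lay within the wildtype range, and the log2 change was 0.04 ± 0.20 (SE, 95% interval −0.40 to 0.48, limma adjusted p = 0.928).

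The dimmer Cdkn1b probe set, 1419497_at, had 8.85, 9.30, 9.53 and 9.03 in Snf2h cKO eyes, against 7.56, 7.32, 5.17 and 8.17 in wildtype eyes. Every knockout array was above every wildtype array, and the wildtype arrays were spread over far more than the knockout arrays. Its level was 4.35-fold that of wildtype, a log2 change of 2.12 ± 0.54 (SE, interval 0.92 to 3.33, limma adjusted p = 0.129). Wildtype replicate 3, the array with the Gapdh difference of 4.47, was the lowest at 5.17, and wildtype replicate 4, with 1.09, was the highest wildtype at 8.17. On replicate 3 the mean log2 level was 7.08 for the list of cornified skin genes and 6.29 for that of wounded epithelium, where replicates 1, 2 and 4 of its group had 4.62 to 4.99 and 4.55 to 5.29. Its lens fibre mean was the lowest of its group (10.4, against 10.97, 11.05 and 11.15). Its lens epithelium mean was the highest (8.025, against 7.793, 7.45 and 7.617). The part of these lists was not tested. The 8 arrays were ordered by their Gapdh difference from 0.775 upwards. Their levels were then 9.53, 9.30, 8.85, 9.03, 8.17, 7.56, 7.32 and 5.17, lower along that order with a single exchange of neighbours. All 4 knockout arrays came first in it, so RNA quality by this control and genotype cannot be told apart. Wildtype replicate 4, at 8.17, had a lower Actb difference (1.44) than knockout replicates 1 and 2 (1.83 and 1.7), at 8.85 and 9.30. Without wildtype replicate 3 the change was 1.49 (adjusted p = 0.0918), and with the Gapdh difference as a covariate, an alternative chosen after seeing the data, it was 1.16 (adjusted p = 0.163). This covariate separated the Snf2h groups, so values fitted with it, here and below, cannot divide RNA quality from genotype.

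**Figure D2:**
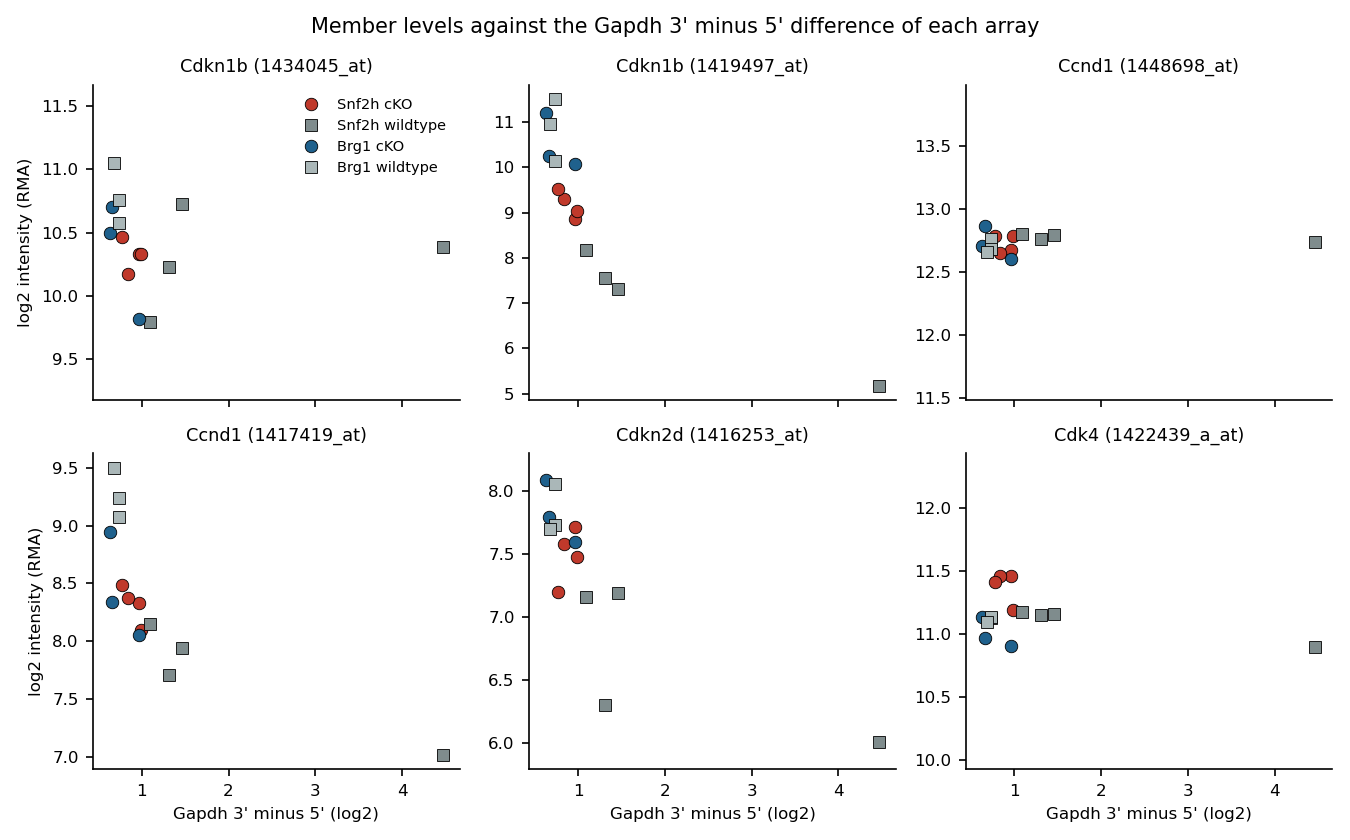
Log2 level of 6 member probe sets (vertical axis) against the Gapdh 3' minus 5' difference on the log2 scale (horizontal axis), 1 point per array, coloured by group. C57BL/6 wildtype replicate 3, at 4.47, is the lowest wildtype point for Cdkn1b 1419497_at (5.17), Cdkn2d (6.01) and Ccnd1 1417419_at (7.02), while for Cdkn1b 1434045_at it lies within the range of its group (10.39). The panels were picked in part by their Snf2h results and do not stand for all members. Cdkn1c and Ccnd2 1416124_at, lower in Snf2h cKO eyes, are not plotted, and this array lay within its group for both (8.96 and 6.35).

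In the Brg1 experiment Cdkn1b 1434045_at had 10.70, 9.82 and 10.50 in cKO eyes, against 10.76, 10.58 and 11.05 in wildtype eyes. Knockout replicates 2 and 3 were below the wildtype range and replicate 1 within it. The log2 change was −0.46 ± 0.27 (SE, interval −1.08 to 0.17, adjusted p = 0.748 by limma). 1419497_at had 10.26, 10.07 and 11.19 in Brg1 cKO eyes, against 11.51, 10.14 and 10.95 in wildtype eyes, a change of −0.36 ± 0.42 (interval −1.33 to 0.61, adjusted p = 0.878). The groups overlapped widely there.

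Cdkn1c, the imprinted Cip/Kip inhibitor also called Kip2, is strongly expressed in early lens fibres and had the same direction in both knockouts. Its single probe set, 1417649_at, had log2 levels of 8.54, 8.49, 8.35 and 8.64 in Snf2h cKO eyes, against 9.43, 8.90, 8.96 and 9.09 in wildtype eyes. Every knockout value was below every wildtype value. The level was 66.5% of wildtype, a log2 change of −0.59 ± 0.15 (SE, interval −0.93 to −0.24, limma adjusted p = 0.135), and it was −0.63 (adjusted p = 0.166) without wildtype replicate 3. Over all alternatives, the Gapdh covariate among them, this change ran from −0.65 to −0.48.

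In Brg1 cKO eyes Cdkn1c had 8.24, 9.12 and 9.03, against 9.22, 9.22 and 10.17 in wildtype eyes. All 3 knockout arrays were below the wildtype range, by a narrow gap for replicates 2 and 3. The level was 59.7% of wildtype, a log2 change of −0.74 ± 0.34 (SE, interval −1.54 to 0.06, limma adjusted p = 0.650). It was −0.43 without wildtype replicate 3 and −0.46 without knockout replicate 1. The difference between the knockout effects was −0.15 ± 0.36 (interval −0.93 to 0.62, adjusted p = 0.896).

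Cdkn2c, an INK4 inhibitor of Cdk4 and Cdk6, was below every wildtype array in Brg1 cKO eyes. Its log2 levels were 8.06, 7.14 and 8.32 in Brg1 cKO eyes, against 8.52, 8.68 and 8.46 in wildtype eyes. The 3 knockout arrays were all below the wildtype arrays, with replicate 2 the furthest. The level was 60.9% of wildtype, a log2 change of −0.71 ± 0.31 (SE, interval −1.43 to 0.0018, limma adjusted p = 0.616), and the smallest size left by omitting 1 array was −0.36. In Snf2h cKO eyes it had 6.34, 6.36, 6.87 and 6.55, against 6.82, 6.77, 6.66 and 6.93 in wildtype eyes, with overlap through replicate 3 and a change of −0.27 ± 0.15 (interval −0.61 to 0.08, adjusted p = 0.392).

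Cdkn2d, an INK4 inhibitor that helps to keep postmitotic neurons out of the cycle, was higher in Snf2h cKO arrays. It had 7.72, 7.58, 7.20 and 7.48 in Snf2h cKO eyes, against 6.31, 7.19, 6.01 and 7.16 in wildtype eyes. The groups did not overlap, although knockout replicate 3 was only just above wildtype replicate 2. The level was 1.77-fold that of wildtype, a log2 change of 0.83 ± 0.28 (SE, interval 0.21 to 1.44, limma adjusted p = 0.192). It was 0.61 (adjusted p = 0.301) without wildtype replicate 3, the lowest array, and 0.51 (adjusted p = 0.485) with the Gapdh covariate. In the Brg1 experiment Cdkn2d had 7.79, 7.60 and 8.09 in cKO eyes, against 7.73, 8.06 and 7.69 in wildtype eyes, which overlapped, with a change of −0.0019 ± 0.20 (interval −0.47 to 0.46, adjusted p = 0.998).

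**Figure D3:**
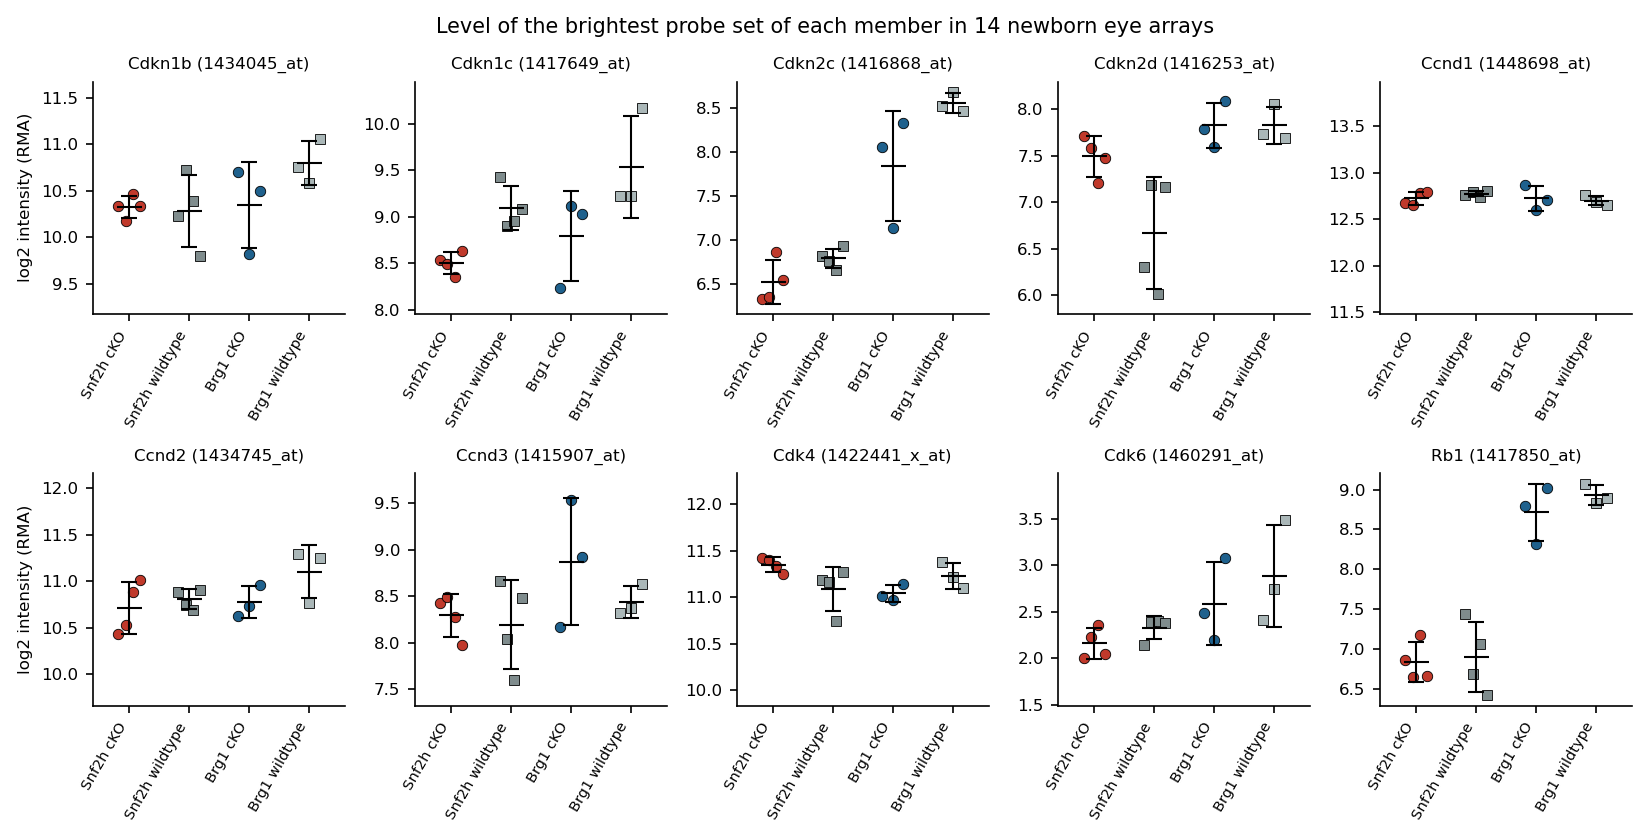
Log2 level (vertical axis) of the brightest probe set of each of the 10 genes on the 14 arrays, by group, with the group mean and SD. Cdkn1c lies lower in both knockouts than in their wildtypes (8.35 to 8.64 against 8.90 to 9.43 in the Snf2h experiment), while Ccnd1 stays between 12.60 and 12.87 on all arrays; levels of different probe sets are not comparable.

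Ccnd1, the D-type cyclin on which growth of the mouse retina depends, differed little by its brightest probe set. 1448698_at had log2 levels of 12.67, 12.65, 12.78 and 12.79 in Snf2h cKO eyes, against 12.76, 12.79, 12.74 and 12.80 in wildtype eyes. In the Brg1 experiment it had 12.87, 12.60 and 12.71 in cKO eyes, against 12.76, 12.68 and 12.66 in wildtype eyes. Groups overlapped in both, and the changes were −0.05 ± 0.12 (SE, interval −0.31 to 0.21) and 0.03 ± 0.16 (interval −0.35 to 0.40), with limma adjusted p-values of 0.839 and 0.981.

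The 2 dimmer Ccnd1 probe sets did not follow it. 1417419_at had 8.33, 8.37, 8.48 and 8.10 in Snf2h cKO eyes, against 7.71, 7.94, 7.02 and 8.15 in wildtype eyes, overlapping through 1 array of each group (change 0.62 ± 0.23 SE, interval 0.10 to 1.14, limma adjusted p = 0.228). In the Brg1 experiment it had 8.34, 8.05 and 8.94 in cKO eyes, against 9.08, 9.24 and 9.50 in wildtype eyes. Each Brg1 cKO array was below its wildtype range, at 56.3% of wildtype (change −0.83 ± 0.26, interval −1.43 to −0.22, adjusted p = 0.387). The difference between the knockout effects was −1.44 ± 0.36 (interval −2.23 to −0.66, limma adjusted p = 0.110), the smallest p of any member in that contrast. Its Snf2h part moved to 0.39 without wildtype replicate 3 and to 0.27 with the Gapdh covariate. 1417420_at had changes of −0.29 ± 0.19 in Snf2h cKO eyes and −0.25 ± 0.22 in Brg1 cKO eyes (interval −0.72 to 0.13 and −0.75 to 0.26), with overlap in both.

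Ccnd2, a D-type cyclin used by many progenitor cells, was read by 7 probe sets. The brightest, 1434745_at, had 10.43, 10.53, 10.89 and 11.01 in Snf2h cKO eyes, against 10.89, 10.75, 10.69 and 10.91 in wildtype eyes. It had 10.63, 10.74 and 10.96 in Brg1 cKO eyes, against 11.30, 10.77 and 11.25 in wildtype eyes. The groups overlapped in both, with log2 changes of −0.09 ± 0.16 (SE, interval −0.46 to 0.27, limma adjusted p = 0.788) and −0.33 ± 0.20 (interval −0.81 to 0.15, adjusted p = 0.766).

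The other 6 Ccnd2 probe sets ranged from −0.78 to 0.23 in Snf2h cKO eyes and from −0.65 to −0.26 in Brg1 cKO eyes. All 7 were thus negative in Brg1 cKO eyes, and none of them separated those groups. The exception in the Snf2h experiment was the dimmest, 1416124_at, with 5.74, 5.26, 5.72 and 5.73 in cKO eyes, against 5.86, 6.58, 6.35 and 6.77 in wildtype eyes. Its arrays did not overlap, and the change was −0.78 ± 0.21 (interval −1.25 to −0.31, limma adjusted p = 0.142). Over the alternatives that kept this probe set, the Gapdh covariate among them, the change ran from −0.96 to −0.63. The same probe set had 6.08, 6.96 and 6.74 in Brg1 cKO eyes, against 7.33, 6.83 and 7.20 in wildtype eyes, which overlapped (change −0.53 ± 0.27, adjusted p = 0.704). Its mean level was below the median of all probe sets.

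Ccnd3, the D-type cyclin prominent in muscle and blood cells, had the largest positive change of the 10 genes in Brg1 cKO eyes. 1415907_at had 8.16, 9.53 and 8.92 there, against 8.32, 8.37 and 8.63 in wildtype eyes. Knockout replicate 1 was below all wildtype arrays and the other 2 above them, and the change of 0.43 ± 0.33 (SE, interval −0.35 to 1.21, limma adjusted p = 0.806) was 0.10 without knockout replicate 2. Replicate 2 was also the knockout array with the highest mean log2 level of the neutrophil list, at 10.56, against 8.48 and 9.03 in the other two. It was the highest of them for skeletal muscle markers too (11.40, against 10.07 and 11.17), for macrophage markers (8.43, against 7.64 and 7.91) and for endothelium markers (8.24, against 7.14 and 7.94). The same held for lens fibre markers (9.91, against 8.3 and 7.59) and for the lens epithelium, corneal stroma and cornified skin lists. It did not hold for the retinal, pigment cell, surface epithelium and wounded epithelium lists. The part of all these lists was not tested. In the Snf2h experiment Ccnd3 had 8.43, 8.49, 8.28 and 7.97 in cKO eyes, against 8.66, 8.03, 7.59 and 8.48 in wildtype eyes, a change of 0.10 ± 0.24 (interval −0.43 to 0.63, adjusted p = 0.845) with wide overlap.

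Cdk4, the catalytic partner of the D-type cyclins, had changes of small size and of opposite sign in the knockouts. Its brightest probe set, 1422441_x_at, had 11.43, 11.40, 11.33 and 11.25 in Snf2h cKO eyes, against 11.18, 11.16, 10.74 and 11.27 in wildtype eyes. It had 11.01, 10.97 and 11.14 in Brg1 cKO eyes, against 11.38, 11.21 and 11.10 in wildtype eyes. Groups overlapped through 1 array each, with changes of 0.26 ± 0.15 (SE, interval −0.07 to 0.60, limma adjusted p = 0.385) and −0.19 ± 0.16 (interval −0.57 to 0.19, adjusted p = 0.825). The suffix _x marks a probe set whose probes can also bind other sequences.

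The other Cdk4 probe sets had the same signs. 1422439_a_at separated the Snf2h groups, with 11.46, 11.46, 11.41 and 11.19 in cKO eyes, against 11.15, 11.16, 10.90 and 11.17 in wildtype eyes (change 0.28 ± 0.13 SE, interval −0.02 to 0.58, limma adjusted p = 0.302). 1422440_at separated the Brg1 groups, with 9.39, 9.19 and 9.27 in cKO eyes, against 9.82, 9.47 and 9.43 in wildtype eyes (change −0.29 ± 0.18, interval −0.71 to 0.13, adjusted p = 0.760). The difference between the effects was −0.45, −0.40 and −0.69 for 1422441_x_at, 1422439_a_at and 1422440_at, with limma adjusted p-values of 0.400, 0.403 and 0.295. With the Gapdh covariate, which separated the Snf2h groups, the Snf2h changes of 1422441_x_at, 1422439_a_at and 1422440_at were 0.09, 0.18 and 0.13.

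Cdk6, the other kinase partner of the D-type cyclins, was near the floor of the array. 1460291_at had log2 levels of 2.0, 2.23, 2.35 and 2.05 in Snf2h cKO eyes, against 2.14, 2.39, 2.40 and 2.37 in wildtype eyes, and 2.49, 2.20 and 3.08 in Brg1 cKO eyes, against 2.41, 2.74 and 3.49 in wildtype eyes. Each knockout overlapped its wildtype. At so low a signal the level cannot be told from background, and the changes were −0.17 ± 0.14 and −0.29 ± 0.34 (SE, limma adjusted p = 0.545 and 0.878).

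Rb1, which encodes the retinoblastoma protein, did not separate the groups of either experiment. 1417850_at had 6.86, 6.64, 7.18 and 6.66 in Snf2h cKO eyes, against 7.44, 6.68, 7.06 and 6.42 in wildtype eyes. In the Brg1 experiment it had 8.80, 8.32 and 9.02 in cKO eyes, against 9.08, 8.83 and 8.89 in wildtype eyes. The changes were −0.06 ± 0.23 (SE, interval −0.58 to 0.45, limma adjusted p = 0.902) and −0.22 ± 0.22 (interval −0.73 to 0.29, adjusted p = 0.851).

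Whether the knockouts differed was tested as the Brg1 effect minus the Snf2h effect over all 14 arrays. No member probe set passed it, where 140 of all probe sets (0.687%) did, 111 higher and 29 lower. Of 21 differences 17 were negative, with a median of −0.45 and a range from −2.48 to 0.33, against a median of 0.02 over all probe sets. Those with an unadjusted p under 0.05 were 4, all negative (12.6% of all probe sets): Cdkn1b 1419497_at (−2.48 ± 0.78 SE, limma adjusted p = 0.206), Cdkn2d 1416253_at (−0.83 ± 0.38, 0.385), Ccnd1 1417419_at and Cdk4 1422440_at. All 4 were higher on average in Snf2h cKO eyes than in their wildtype. In that experiment the Gapdh difference separated the groups, so RNA quality by that control and genotype cannot be told apart. The Actb difference overlapped between these groups.

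Levels were also compared between the experiments. Both Brg1-experiment groups were above both Snf2h-experiment groups on every array for 3 of 21 member probe sets, near the 10.4% of all probe sets. These were Cdkn1b 1419497_at, Cdkn2c and Rb1, and mixed-background minus C57BL/6 wildtype was 3.81, 1.76 and 2.04 on the log2 scale. The wildtype groups did not overlap for 8 of 21 member probe sets, all higher in mixed-background eyes, where 21.9% of all probe sets were higher and 22.5% lower in this way. Strain, experiment and RNA quality cannot be told apart in that comparison. For Cdkn1c, Ccnd3 and the brightest probe sets of Cdkn1b, Ccnd1, Ccnd2 and Cdk4, neighbours in the order of the 4 group means overlapped.

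Probe sets of a gene agreed to different degrees over the 14 arrays, each centred on its own wildtype mean. As a description, Pearson's r was 0.697 to 0.929 among the 3 Cdk4 probe sets and 0.32 between the 2 of Cdkn1b. Among the Ccnd1 probe sets it was 0.61 for 1417419_at with 1417420_at, and −0.268 and 0.0656 for those with 1448698_at. Among those of Ccnd2 it ran from −0.0612 to 0.909.

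The wider pathway was read from lists of other genes, each by its brightest probe set. Of 14 measured CDK inhibitors, CDKs and CDK partners, 0 rose and 0 fell in either knockout (of all genes 0% were called in Snf2h cKO eyes and 0.855% in Brg1 cKO eyes, 0.355% as lower), with median changes of −0.16 in Snf2h cKO eyes and 0.02 in Brg1 cKO eyes. Over all genes the medians were −0.05 and 0.02. In Brg1 cKO eyes the largest were Cdc25a, a phosphatase that activates CDKs (0.71 ± 0.23 SE, limma adjusted p = 0.410), and Cdkn2a, which encodes the INK4 founder and Arf (0.70 ± 0.25, 0.508), both above all wildtype arrays. Cdkn2a had levels of 3.76 to 4.56 in Brg1 cKO eyes and 3.29 to 3.72 in wildtype eyes, near the floor of the array. Cdkn1a, the Cip/Kip inhibitor induced by p53, had changes of −0.38 ± 0.19 in Snf2h cKO eyes and 0.67 ± 0.37 in Brg1 cKO eyes (adjusted p = 0.322 and 0.732). Cdk2 had 0.56 ± 0.26, Cdkn2b −0.57 ± 0.29 and Cdk1 −0.30 ± 0.14 in Snf2h cKO eyes, with overlap of the groups, and Cdk1 had −0.29 ± 0.18 in Brg1 cKO eyes, without overlap.

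Downstream of Rb1, 11 genes of the RB family and E2F list were measured, with 0 calls in either knockout and medians of −0.17 and −0.04. E2f8, an E2F repressor, was below all wildtype arrays in Snf2h cKO eyes (−0.49 ± 0.13 SE, limma adjusted p = 0.134) and had −0.49 ± 0.34 in Brg1 cKO eyes (adjusted p = 0.785), with overlap, and −0.08 there without knockout replicate 2. E2f1, an E2F activator, was above all wildtype arrays in Snf2h cKO eyes (0.41 ± 0.16, adjusted p = 0.249). Rbl1, the RB relative also called p107, had −0.46 ± 0.24 in Brg1 cKO eyes (adjusted p = 0.711).

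Of 18 measured readouts of proliferation 0 rose and 0 fell, and the medians were 0.0023 in Snf2h cKO eyes and −0.12 in Brg1 cKO eyes. Negative changes numbered 9 of 18 in Snf2h cKO eyes and 17 of 18 in Brg1 cKO eyes, where the summed retinal progenitor markers given above were also lower than in wildtype, a link that was not tested. The replication helicase gene Mcm4 (−0.51 ± 0.18 SE, limma adjusted p = 0.466) and the ribonucleotide reductase gene Rrm2 (−0.38 ± 0.18, 0.657) were below all wildtype arrays in Brg1 cKO eyes, while Mcm2 was the positive one (0.53 ± 0.30, 0.745). Mki67, the gene of the proliferation antigen Ki-67, was above all wildtype arrays in Snf2h cKO eyes (0.32 ± 0.14, adjusted p = 0.275), and Mcm2 had −0.38 ± 0.17 there (0.277).

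Among 8 lens transcription factors listed as possible regulators of Cdkn1b or Cdkn1c, 1 fell, in Brg1 cKO eyes, and 0 were called in Snf2h cKO eyes. That each of them acts on these genes is not established here. Prox1, which is needed for Cdkn1b and Cdkn1c expression and fibre elongation in the mouse lens, had log2 levels of 4.33, 3.90 and 4.29 in Brg1 cKO eyes, against 5.87, 6.26 and 5.86 in wildtype eyes. Its arrays did not overlap, and Prox1 fell by 1.83 ± 0.20 (log2 change of −1.83, SE, limma adjusted p = 0.0150). The probe set is dim, and the Prox1 call was lost without any 1 of the 3 wildtype arrays (adjusted p = 0.0896, 0.0862 and 0.0685), without knockout replicate 3 (0.0605), with the replicate block (0.0732) and with an offset of 16 (change −1.23, 0.0686). In Snf2h cKO eyes Prox1 had 5.99, 5.78, 6.45 and 6.19, against 6.16, 6.77, 5.34 and 6.22 in wildtype eyes, a change of −0.02 ± 0.28 with overlap. The difference between the knockout effects was −1.80 ± 0.39 (adjusted p = 0.0513), and it passed the test with 1 probe set per gene (0.0437) and without C57BL/6 wildtype replicate 2 (0.0206) or 3 (0.0499).

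The other lens factors with the smallest p in Snf2h cKO eyes were Hsf4, Pitx3 and Gata3. Hsf4, a heat shock factor of fibre differentiation, was below all wildtype arrays (−0.86 ± 0.18 SE, limma adjusted p = 0.0897). Pitx3, a factor of lens fibre differentiation, had −0.66 ± 0.19 (adjusted p = 0.157), and Gata3, which restrains fibre cell division in the mouse, had −0.72 ± 0.22 (adjusted p = 0.175). Both overlapped their wildtype. Hsf4 had log2 levels of 4.28, 4.83 and 3.07 in Brg1 cKO eyes, against 6.00, 6.80 and 6.54 in wildtype eyes. These groups did not overlap, and the change of −2.39 ± 0.45 was larger in size than that of Prox1 but did not pass the test (limma adjusted p = 0.0948). In Brg1 cKO eyes Hsf4 passed it with array weights (adjusted p = 0.0350), with 1 fit over 14 arrays (0.0026) and without knockout replicate 2 (0.0362). Those settings called 183, 280 and 199 of all probe sets, against 127 in the main fit. In Snf2h cKO eyes Hsf4 and Pitx3 passed with array weights (0.0241 and 0.0401), which called 561 of all probe sets. Gata3 passed there without wildtype replicate 1 (0.0330), a setting with 184 calls, where the main fit had 0. The highest adjusted p over the alternatives in Snf2h cKO eyes was 0.301 for Hsf4, 0.361 for Pitx3 and 0.425 for Gata3. The medians of this list were −0.05 in Snf2h cKO eyes and −0.26 in Brg1 cKO eyes, and summed lens fibre marker levels were lower in Brg1 cKO eyes than in their wildtype, beside the Prox1 and Hsf4 values. Their part in these was not tested.

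**Figure D4:**
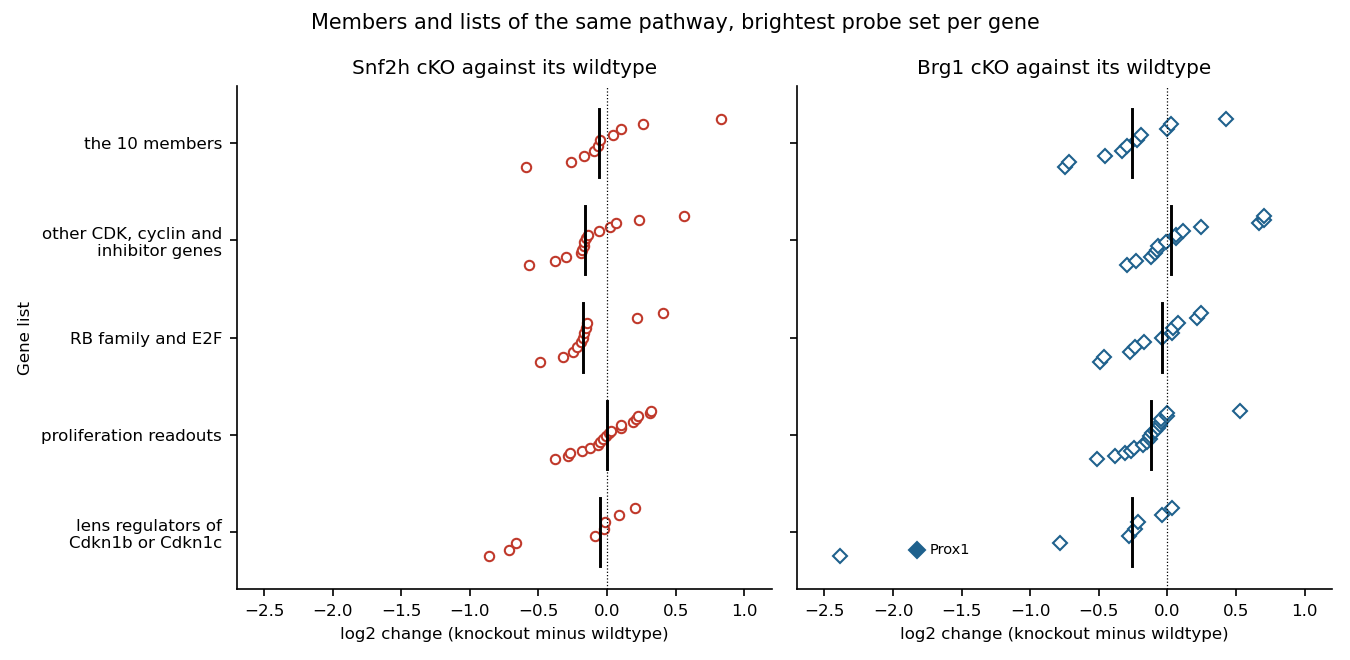
Log2 change (knockout minus its own wildtype) of each measured gene of the members and the pathway lists, by its brightest probe set, for Snf2h cKO and Brg1 cKO eyes. Most genes lie near 0, and Prox1 in Brg1 cKO eyes (−1.83) is the 1 gene that passed the adjusted test.

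The genes whose pattern was most like each member were found by Pearson's r over the 14 arrays, centred on the wildtype mean of the own experiment, each gene by its brightest probe set. The values describe 14 arrays that share RNA quality and tissue content within a group. For Cdkn1b they were Odf2l (0.944), Smim10l1 (0.910) and Nap1l5 (0.909), for Cdkn1c Cap2 (0.897), Gask1b (0.894) and Lepr (0.873), and for Cdkn2c Mindy3 (0.902), Mtnr1a (0.892) and Trip13 (0.886). Cdkn2d was most like Elof1 (0.944), Ift46 (0.925) and Med31 (0.921). For Ccnd1 they were Dis3 (0.901), Slc35b1 (0.894) and Zfp235 (0.894), for Ccnd2 Pcmtd1 (0.867), Dlg5 (0.847) and Crim1 (0.846), and for Ccnd3 Des (0.904), Lsp1 (0.887) and Myo1c (0.881). Cdk4 had the closest match of all, Nop10 (0.977), followed by Psmb2 (0.956) and Ndufa4 (0.953). Cdk6, near the floor, had the weakest, with Asnsd1 (0.818), M6pr (0.814) and Tmem60 (0.792), and Rb1 was most like Dlx1 (0.934), Pank3 (0.901) and Lpgat1 (0.886). All were picked as the highest among 12393 genes. Within 1 experiment r ran from −0.183 (Cdk6 with Tmem60, Snf2h arrays) to 0.991 (Cdk4 with Psmb2, Snf2h arrays). In the Brg1 arrays these pairs had 0.902 and 0.813.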

How the data were processed

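Total RNA of whole eyes at postnatal day 1 was amplified from 50 ng and hybridised to single-colour Affymetrix arrays, per the labels. RMA is the method the submitters' processing notes name, and the deposited table holds linear intensity for each probe set. The RMA version, and whether all arrays were summarised at once, are not given in the sources used here. No scaling or offset was added before log2. Of 22690 probe sets, 64 controls, 691 with several genes and 1555 with no gene in the array annotation were left out, leaving 20380. The RefSeq table changed 0 symbols, and the annotation names no genome build.

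Each knockout was compared with its own wildtype in limma 3.58.1 (lmFit and eBayes, R 4.3.3) over all probe sets, with Benjamini-Hochberg adjustment over all of them and calls at 0.05. The difference between knockout effects was a contrast over 14 arrays with 4 group means. Errors are moderated standard errors, intervals 95%, and tests two-sided. Nothing shows that the samples of a group are separate litters, so p-values measure the spread between these samples. Replicate numbers did not pair the samples (correlation of same-numbered deviations −0.23 to 0.0566 in the Snf2h experiment, 0.0661 to 0.133 in the Brg1 experiment).

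The members and lists were chosen with earlier results of these data known. All member probe sets are named, as are the called genes of each pathway list or its 4 of smallest p per contrast, and the 3 genes most like each member. A subset of those is printed. The dim filter, used only as an alternative, kept 18 of 21 member probe sets in the Snf2h experiment and 19 in the Brg1 experiment.

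On simulated data over 20380 probe sets, with 100 changed by a log2 of 1 and 100 by 2, the Snf2h test recovered 49% and 90%, the Brg1 test 25% and 70%, and the contrast 16% and 74%, with 6, 3 and 3 false calls. No depth is defined for arrays, and their number limits the precision. Promoter windows were from RefSeq, with entries matched for 6 of 10 members. Alternatives were quantile normalisation, a dim filter, 1 probe set per gene, array weights, the replicate block, trended robust eBayes, 1 fit over 14 arrays, an offset of 16, near-identical arrays averaged and leaving out each array. The Gapdh difference as a covariate was chosen after seeing the data.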

Additional observations from a re-analysis of the deposited data

Results flagged for a closer look

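In 3 of 42 groups of 4 arrays, 1 array lay far from the other 3, where chance alone gives about 5%. Ccnd2 1416124_at was at a log2 level of 5.26 in Snf2h cKO replicate 2, against 5.72 to 5.74 in the other knockout arrays. Cdk4 1422439_a_at was at 10.90 in C57BL/6 wildtype replicate 3, against 11.15 to 11.17 in its group, and this array had the Gapdh 3' to 5' difference of 4.47. Cdk6 1460291_at was at 2.14 in C57BL/6 wildtype replicate 1, against 2.37 to 2.40, at a level near the floor of the array.

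For 4 of 21 member probe sets every Snf2h cKO array lay above its wildtype mean and every Brg1 cKO array below its own. The share of all probe sets that did so was not counted, and the Cdk4 probe sets among them share a gene. For Ccnd2 1448229_s_at the highest Brg1 cKO array deviated by only −0.001 from its wildtype mean. The difference between the effects (Brg1 minus Snf2h) did not pass the test for any of them. It was −1.44 for Ccnd1 1417419_at (limma adjusted p = 0.110), −0.73 for Ccnd2 1448229_s_at (0.452), −0.45 for Cdk4 1422441_x_at (0.400) and −0.69 for Cdk4 1422440_at (0.295).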

How the results depend on the processing

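The count of 0 member calls held under all alternatives except 2. Array weights gave 1 call in Snf2h cKO eyes (Cdkn1b 1419497_at, log2 change 1.88, limma adjusted p = 0.0348). In the difference between knockouts, leaving out 1 array gave 0 to 1 calls, the 1 being Ccnd1 1417419_at (−1.69, adjusted p = 0.0387) without Brg1 cKO replicate 3. Over all probe sets the Snf2h count of 0 became 5 with the dim filter, 2 with 1 probe set per gene, 7 with trended robust eBayes, 561 with array weights, 5 with 1 fit over 14 arrays, 3 with the offset, 1 with the Gapdh covariate and 0 to 184 with 1 array left out (184 without wildtype replicate 1, 77 without wildtype replicate 4). The Brg1 count of 127 became 25 with the dim filter, 50 with the replicate block, 280 with 1 fit, 18 with the offset and 25 to 199 with 1 array left out. For the difference, 140 became 7 with the dim filter, 81 with the replicate block, 59 with the offset, 82 with near-identical arrays averaged and 66 to 290 with 1 array left out. Numbers did not pair the samples, and the replicate block gave 0 member calls. Signs turned for changes of up to 0.33 in size in the main fit (Ccnd3, in the difference). In Snf2h cKO eyes they turned for Cdkn1b 1434045_at (−0.093 with array weights), Ccnd2 1416122_at (−0.011 averaged) and Ccnd2 1455956_x_at (−0.019 with either quantile normalisation, −0.062 averaged). With the Gapdh covariate they turned there for Ccnd3 (−0.21), Rb1 (0.016), Ccnd2 1430127_a_at (−0.089) and Smarca5 1424207_at (−0.037). Array weights gave 0.074 for Cdkn2d in Brg1 cKO eyes and 0.060 for Rb1 in the difference. Leaving out 1 array turned signs within these ranges. In Snf2h cKO eyes they were −0.10 to 0.26 for Ccnd3, −0.20 to 0.28 for Ccnd2 1416122_at, −0.19 to 0.0016 for 1434745_at, −0.19 to 0.11 for 1455956_x_at, −0.22 to 0.11 for Rb1, −0.12 to 0.19 for Cdkn1b 1434045_at and −0.34 to 0.059 for Smarca5 1424206_at. In Brg1 cKO eyes they were −0.43 to 0.055 for Ccnd2 1416122_at, −0.13 to 0.11 for Cdkn2d, −0.046 to 0.087 for Ccnd1 1448698_at, −0.54 to 0.0081 for Cdk6, −0.51 to 0.025 for Aurkb and −0.14 to 0.21 for Smarca4 1426804_at. In the difference they were −0.0014 to 0.68 for Ccnd3, −0.53 to 0.015 for Ccnd2 1416122_at, −0.11 to 0.23 for Ccnd1 1417420_at, −0.32 to 0.16 for Cdkn1c, −0.34 to 0.041 for Rb1 and −0.37 to 0.18 for Cdk6. The causes were not tested. Quantile normalisation moved the median of all probe sets by at most 0.02 in size. The dim filter and 1 probe set per gene leave some probe sets without a value.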
